A study of Homo sapiens with 2 samples.

Results

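The 33 genes examined here encode enzymes of cholesterol and fatty acid synthesis and the regulators that control them, and they were listed by name, with earlier results of these data known, out of 20037 protein-coding genes. Chromatin immunoprecipitation sequencing (ChIP-seq) had been carried out in the established human liver cancer line MHCC-97H, in which HA-tagged RFX6 was overexpressed from a plasmid and precipitated through the tag. RFX6 is one of the RFX transcription factors, which bind DNA at the X-box. The peak list came from 1 HA-RFX6 ChIP library without a replicate. The series also holds 1 input library of MHCC-97H cells, from which no processed file was analysed here. It holds no precipitation from cells without the HA tag. The list held 5019 distinct intervals on chromosomes 1 to 22 and X, with a median score of 30 and quartiles of 22 and 39. The read depth behind the intervals was unknown, and with 1 library no test of a difference was possible. A peak list holds no expression values, so neither markers of the cell line nor the transcripts of the 33 genes could be examined from it. The paper also reports RNA sequencing of RFX6-knockout cells and controls of another liver cancer line, which was not used here.

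Cells build cholesterol from acetyl-CoA. The mevalonate steps produce isoprenoid diphosphates, squalene is made from these, and the sterol rings are then closed, demethylated and reduced. Fatty acids are built from the same acetyl-CoA by carboxylation, chain synthesis, elongation and desaturation. Both branches are controlled by the sterol regulatory element-binding proteins (SREBPs), which are held in the endoplasmic reticulum membrane with SCAP and the INSIG proteins and enter the nucleus after cleavage when sterols are low. The liver is a main site of both pathways.

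RFX6 intervals were found at 14 of the 33 genes. An interval was counted for a gene when its midpoint lay inside the gene or within 1 kb of either end. The share was 42.4%, whereas 19.5% of all protein-coding genes had such an interval. Within 1 kb of a gene end, 10 of the 33 genes (30.3%) had an interval, compared with 15.5% of all protein-coding genes. The median length of the 33 genes was 22.1 kb, and that of all protein-coding genes was 24.1 kb. These shares describe a single peak list and genes chosen with results of that list known, and the difference between them was not tested.

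The 14 genes fell in all 4 groups of the pathway. Of the 8 genes of the mevalonate and isoprenoid steps, 5 had an interval, namely HMGCS1, PMVK, MVD, IDI1 and FDPS. Of the 11 genes from squalene to cholesterol, only LSS and DHCR7 had an interval. Of the 5 genes of SREBP control, SREBF1, SREBF2 and SCAP had an interval, and INSIG1 and INSIG2 had none. Of the 9 genes of fatty acid synthesis, FASN, ACACB, SCD and ELOVL1 had an interval. The groups are small, and the differences between them were not tested.

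**Figure D1:**
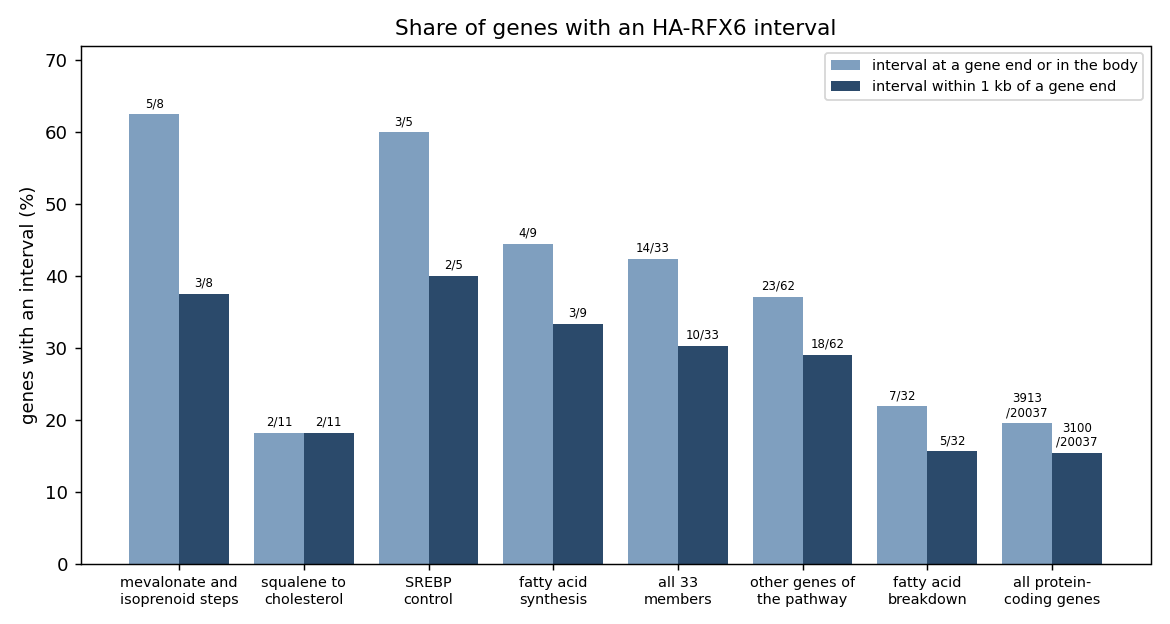
Percentage of genes with an HA-RFX6 interval (y axis) in each group of genes (x axis). Light bars count an interval at a gene end or in the gene body and dark bars an interval within 1 kb of a gene end, with the number of genes above each bar. The 33 genes stand at 42.4% and 30.3%, and all protein-coding genes at 19.5% and 15.5%.

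The positions of the intervals were then compared with annotated transcription start sites, a step added after the data were seen. RefSeq starts (GRCh38.p14) were used for 29 of the 33 genes, excluding ACAT2, FDFT1, SQLE and FASN. Of these 29 genes, 13 (44.8%) had an interval whose midpoint lay within 1 kb of an annotated start, compared with 16.3% of all protein-coding genes in the table. These were all of the genes with an interval except FASN. This also held for PMVK, IDI1, SCAP and ACACB, whose intervals had been classed as inside the gene body. They lay at starts that the annotation places 5939, 7585, 1186 and 43490 bp inside the respective gene.

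The stretches upstream of the start are shown for the 4 genes in which the interval covered at least 100 of these 250 bases and no other start of the gene was within 1 kb upstream. All 4 are on the minus strand and are printed 5′ to 3′ along the gene, ending at the base before the start. Capitals mark bases inside the RFX6 interval. The sequences are from RefSeq (GRCh38.p14), at chr10:1049120-1049369 for IDI1, chr21:46228775-46229024 for LSS, chr16:88663092-88663341 for MVD and chr1:154936720-154936969 for PMVK.
IDI1: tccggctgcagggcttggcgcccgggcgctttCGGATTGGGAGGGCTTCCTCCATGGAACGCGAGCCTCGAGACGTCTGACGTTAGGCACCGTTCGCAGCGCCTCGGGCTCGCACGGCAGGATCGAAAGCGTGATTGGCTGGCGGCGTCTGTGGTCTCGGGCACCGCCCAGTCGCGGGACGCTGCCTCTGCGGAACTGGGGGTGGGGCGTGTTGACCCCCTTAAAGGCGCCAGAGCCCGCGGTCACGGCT
LSS: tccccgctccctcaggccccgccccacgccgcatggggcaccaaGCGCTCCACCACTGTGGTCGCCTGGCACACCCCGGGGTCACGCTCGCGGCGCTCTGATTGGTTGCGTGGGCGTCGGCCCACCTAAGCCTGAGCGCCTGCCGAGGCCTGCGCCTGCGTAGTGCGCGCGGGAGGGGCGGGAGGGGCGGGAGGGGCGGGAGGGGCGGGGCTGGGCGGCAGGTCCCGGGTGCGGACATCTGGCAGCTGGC
MVD: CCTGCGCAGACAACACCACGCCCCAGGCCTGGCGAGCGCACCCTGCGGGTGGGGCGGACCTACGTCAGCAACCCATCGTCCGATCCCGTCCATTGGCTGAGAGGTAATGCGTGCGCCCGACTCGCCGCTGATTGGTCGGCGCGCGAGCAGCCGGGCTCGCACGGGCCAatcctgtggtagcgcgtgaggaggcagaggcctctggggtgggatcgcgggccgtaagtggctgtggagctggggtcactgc
PMVK: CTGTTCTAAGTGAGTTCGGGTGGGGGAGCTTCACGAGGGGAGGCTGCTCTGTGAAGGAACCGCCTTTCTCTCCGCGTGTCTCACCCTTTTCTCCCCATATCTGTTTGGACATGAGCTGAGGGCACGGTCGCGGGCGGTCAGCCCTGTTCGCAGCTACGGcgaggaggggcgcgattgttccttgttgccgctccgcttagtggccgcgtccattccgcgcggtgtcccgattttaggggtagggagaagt
The intervals covered 218 of the 250 bases at IDI1, 206 at LSS, 168 at MVD and 159 at PMVK. Thus, at IDI1 and LSS the covered bases ran up to the start, whereas at MVD and PMVK they ended before it.

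Motifs were searched on both strands in the windows from 250 bases before to 50 bases after each start, and each was counted on its own, also where it overlapped another. In the windows of the 4 starts shown, the CCAAT box (CCAAT), to which the SREBP partner NF-Y binds, occurred in 2 places in the covered bases of IDI1, in 2 of MVD and in 1 of LSS, each time on the opposite strand, and it was not found in the PMVK window. The interval of IDI1 also reached the window of a neighbouring start of the gene, where it covered 1 more CCAAT box, on the same strand. The GC box (GGGCGG), a site of SP1, occurred in 6 places in the covered bases of LSS and in 1 each of IDI1, MVD and PMVK. An E-box (CACGTG) was found in the covered bases of LSS, after the start. The core of the sterol regulatory element (CACCCCA) was found in the MVD window, outside the covered bases. Of the X-box, the element recognised by RFX proteins, only an arm with the exact letters GTTGCC was searched. It was found in the PMVK window, again outside the covered bases. Arms with other letters were not searched, so their presence in the covered bases is not described here.

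Over all 41 windows of the 29 genes, the CCAAT box was present in 25 (61.0%), whereas it was present in 34.7% of the 22199 windows of all protein-coding genes. It occurred in 11 of the 16 windows with an interval within 1 kb and in 14 of the 25 without. The GC box was present in 34 of the 41 windows (82.9%), compared with 56.3% of all windows. It occurred in 15 of the 16 windows with an interval within 1 kb and in 19 of the 25 without. Over all protein-coding genes, the GC box occurred in 79.0% of windows with an interval and in 52.4% of those without, while the CCAAT box occurred in 34.9% and 34.6%, respectively. The X-box arm was present in 8 of the 41 windows (19.5%) and in 12.6% of all windows. Over all genes its share was 12.7% with an interval and 12.5% without. The pair of facing arms, in these exact letters and spaced by 0 to 3 bases, was absent from the 41 windows. It occurred in only 0.185% of all windows, so 41 windows are too few for its absence to be read. Pairs with other letters were not searched. The E-box was present in 6 of the 41 windows (14.6%) and in 8.34% of all windows, and the sterol regulatory element core in 4 (9.76%) and in 8.25%. Several genes have more than 1 start, so some windows overlap, and the intervals extend beyond the windows.

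The windows with an interval were rich in G and C. Their median GC content was 69.0% in the 16 windows of the pathway genes, with a range from 57.0% to 77.3%. It was 66.0% in the 25 windows of these genes without an interval. Over all protein-coding genes the medians were 69.0% with an interval and 61.0% without.

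Around the starts, the 13 midpoints ranged from 626 bp upstream to 393 bp downstream, and 11 of them were within 300 bp. Of the 13 intervals, 7 crossed the start, 3 lay wholly upstream and 3 wholly downstream. Over all 2696 intervals within 1 kb of a start of a coding gene, the median midpoint was 56.5 bp downstream and 75.2% of midpoints were within 300 bp. Intervals at the far end of genes were rare in general. Of the 27 genes longer than 5 kb with a known start, 8 had an interval at the gene end on the start side and none at the other end. For all 13504 such protein-coding genes, the shares were 16.1% and 0.940%. At the latter share, 27 genes are too few for the absence at the far end to be read.

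**Figure D2:**
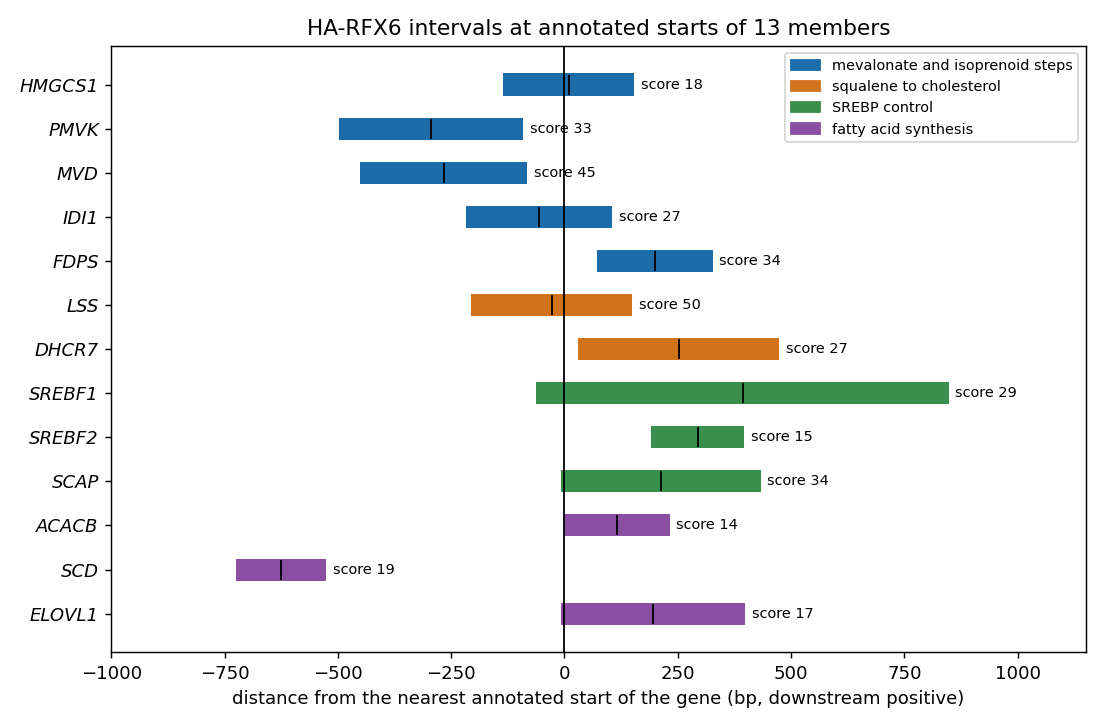
HA-RFX6 intervals (bars) of 13 genes relative to the nearest annotated start of each gene (vertical line), in bp on the x axis with downstream positive. Black ticks mark midpoints, which range from 626 bp upstream at SCD to 393 bp downstream at SREBF1, colours mark the groups of genes, and the score is printed beside each bar.

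Among the mevalonate genes, the order of the pathway was followed. At HMGCS1, which encodes the synthase that makes HMG-CoA, the interval chr5:43313028-43313317 had a score of 18, and 13.2% of all intervals scored lower. Its midpoint was 9 bp downstream of a start that lies 231 bp inside the gene. At PMVK, which encodes phosphomevalonate kinase, the interval chr1:154936811-154937217 was centred 295 bp upstream of the start, with scores of 33 and 27 on its 2 lines. This start is 5939 bp from the end of the gene record, so the interval was missed by a window around the gene end alone.

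MVD encodes the decarboxylase that forms isopentenyl diphosphate. Its interval, chr16:88663174-88663543, had the highest score of the mevalonate group, 45, with 80.8% of all intervals scoring lower. It lay just outside the gene, centred 267 bp upstream of the start, and by the same rule it also counted for the non-coding gene SNAI3-AS1. IDI1, the isomerase that follows, had the interval chr10:1049014-1049337 with a score of 27, centred 56 bp upstream of a start 7585 bp inside the gene. By distance to gene ends alone, this interval would go to WDR37, an end of which was 7210 bp away.

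FDPS encodes farnesyl diphosphate synthase, at the branch point to sterols and to prenylation. Its interval, chr1:155308937-155309193, had a score of 34 and was centred 199 bp downstream of the start of FDPS. It was also within 1 kb of an end of PKLR, which encodes the pyruvate kinase of liver and red cells, so it cannot be assigned to either gene alone. This was the only one of the 10 genes with an interval at a gene end where it was shared with an end of another coding gene. Among all 3100 protein-coding genes with such an interval, 969 (31.3%) shared it.

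In the later sterol steps, LSS and DHCR7 had an interval. LSS encodes lanosterol synthase, which closes the sterol rings. Its interval, chr21:46228625-46228980, had a score of 50, was centred 28 bp upstream of the start and also counted for the antisense gene MCM3AP-AS1. Only the FASN interval scored higher among the 33 genes. DHCR7 encodes the reductase of the last step to cholesterol. Its interval, chr11:71447920-71448363, carried scores of 27 and 21 and was centred 252 bp downstream of a start 650 bp inside the gene, and it also counted for the divergent transcript DHCR7-DT. The midpoint was 902 bp from the gene end, the largest distance that still counted as a gene end here.

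The regulators SREBF1 and SREBF2 encode the SREBP proteins, and SCAP encodes their escort from the endoplasmic reticulum. SREBF1 had 3 intervals and FASN had 2, while with scores of at least 20 both had 2, and with scores of at least 30 SREBF1 had none. The interval chr17:17836138-17837048 was 911 bp wide, the widest of the 17 intervals in this set, and its 3 lines had scores from 18 to 29. It crossed the start. The other intervals were in the gene body, 11905 bp (chr17:17824939-17825223, score 29) and 16057 bp (chr17:17820807-17821052, score 17) downstream of the annotated start. They were the only intervals of the set farther than 1 kb from every annotated start of their gene. The latter was 9595 bp from the far end of SREBF1 and 9476 bp from an end of RAI1.

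At SREBF2, the interval chr22:41833297-41833501 had a score of 15 on both of its lines, and only 4.46% of all intervals scored lower. It lay 294 bp downstream of the start and also counted for SREBF2-AS1. At SCAP, the interval chr3:47475508-47475948 had scores of 34 and 32 and was centred 213 bp downstream of the start, where it also counted for the non-coding gene LOC105377073. Its midpoint was 1399 bp from the gene end, the closest to the 1 kb limit among those that did not count as a gene end. INSIG1 and INSIG2, whose products retain SCAP in the membrane, were 1640 and 1113 kb away from the nearest interval.

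FASN, which encodes fatty acid synthase, had the highest score of the 33 genes. The interval chr17:82098285-82098870 had scores of 64 and 46, was centred 341 bp outside the high-coordinate end of the gene, and outscored 95.4% of all intervals. A further interval, chr17:82097259-82097500 with a score of 25, lay 857 bp inside the same end.

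The other intervals of this group had low scores. ACACB encodes the acetyl-CoA carboxylase of the mitochondrial outer membrane, and its interval chr12:109154677-109154911 had a score of 14, the lowest of the set. It was centred 115 bp downstream of a start 43490 bp inside the gene. SCD encodes the desaturase that makes monounsaturated fatty acids. Its interval, chr10:100346508-100346707 with a score of 19, was 200 bp wide, the narrowest of the set, and lay wholly upstream, centred 626 bp before the start. ELOVL1, an elongase of long fatty acyl chains, had the interval chr1:43367613-43368019 with a score of 17, centred 195 bp downstream of the start, and it also counted for the non-coding gene LOC112268225.

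Scores were then compared with those of other genes. The best interval at a gene end had a median score of 28 over the 10 genes, with a range from 15 to 64, compared with 33 over all 3100 protein-coding genes with such an interval. A score of at least 30 was reached by 4 of the 10 (40.0%) and by 61.4% of the 3100. The unit of the score is unknown here, and it served only to rank intervals. The counts depended on it. With scores of at least 30, 6 of the 33 genes had an interval (18.2%, compared with 12.0% of all protein-coding genes), and 4 had it at a gene end (12.1%, compared with 9.50%). The 6 genes were PMVK, MVD, FDPS, LSS, SCAP and FASN. With scores of at least 20, the count was 9 of 33 (27.3%, compared with 17.3%) and 6 of 33 at a gene end (18.2%, compared with 13.8%). At annotated starts, 5 of the 29 genes (17.2%, compared with 9.90%) had an interval with a score of at least 30 and 8 (27.6%, compared with 14.5%) with a score of at least 20.

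**Figure D3:**
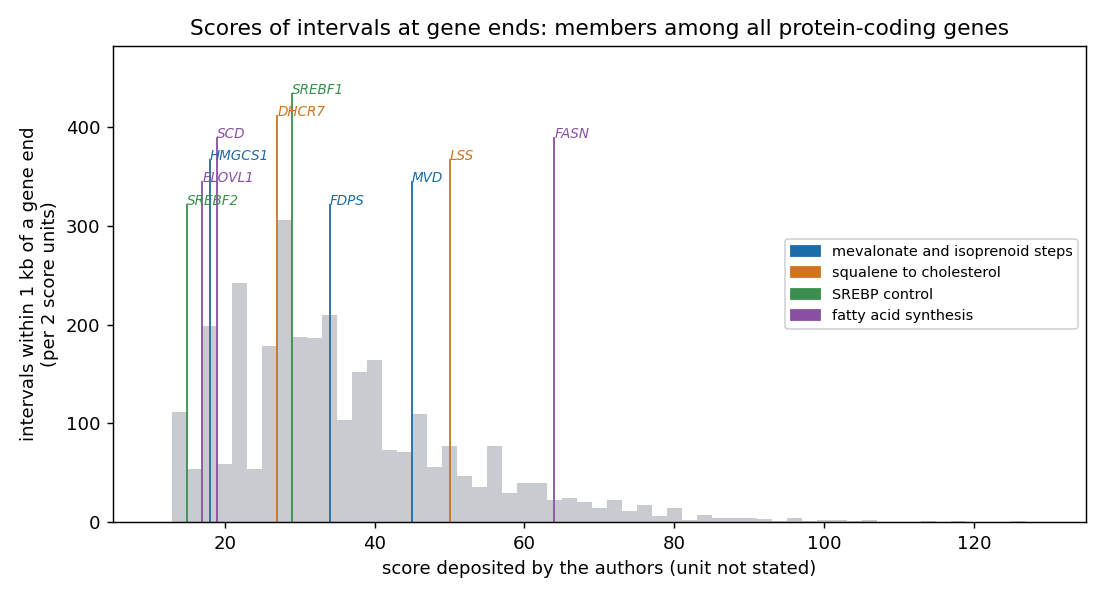
Scores deposited by the authors (x axis, unit not stated) of all intervals at ends of protein-coding genes (grey histogram, number of intervals on the y axis). Coloured lines mark the best such interval of 10 genes of the set, which range from 15 at SREBF2 to 64 at FASN with a median of 28.

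The remaining 19 genes had no interval by the rule. They were ACAT2, MVK and GGPS1 of the isoprenoid steps, FDFT1, SQLE, CYP51A1, TM7SF2, MSMO1, NSDHL, HSD17B7, EBP, SC5D of the sterol steps, INSIG1 and INSIG2, and ACACA, ELOVL6, ELOVL5, FADS1 and FADS2 of fatty acid synthesis. For 6 of them an interval lay within 30 kb. The closest was to FADS1, a fatty acid desaturase, at 9.10 kb, and it was nearest to an end of TMEM258. The interval near ELOVL5, an elongase of polyunsaturated chains, was 10.3 kb upstream, and no other coding gene end was closer to it. For ACAT2, the thiolase that opens the pathway, the nearest interval was 11.4 kb away and 739 bp from an end of MRPL18. TM7SF2, a sterol reductase, had an interval at 15.6 kb, 95 bp from an end of VPS51.

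ACACA, the cytosolic acetyl-CoA carboxylase, and ACACB thus differed in this list, as the nearest interval to ACACA was 82.4 kb away. The difference rested on the ACACB interval with its score of 14, and with scores of at least 20 neither gene had an interval. The largest distances were 1041 kb for HSD17B7, a reductase of sterol demethylation, and 8698 kb for ELOVL6, an elongase of long saturated chains, beside those of the INSIG genes. NSDHL and EBP on chromosome X and MSMO1 and ELOVL6 on chromosome 4 were without an interval. On these chromosomes intervals were sparse, and 4.76% of their 1618 protein-coding genes had an interval by the same rule. As the depth was unknown, these 19 genes are described only as absent from the list, and occupancy below its detection limit was not examined.

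**Figure D4:**
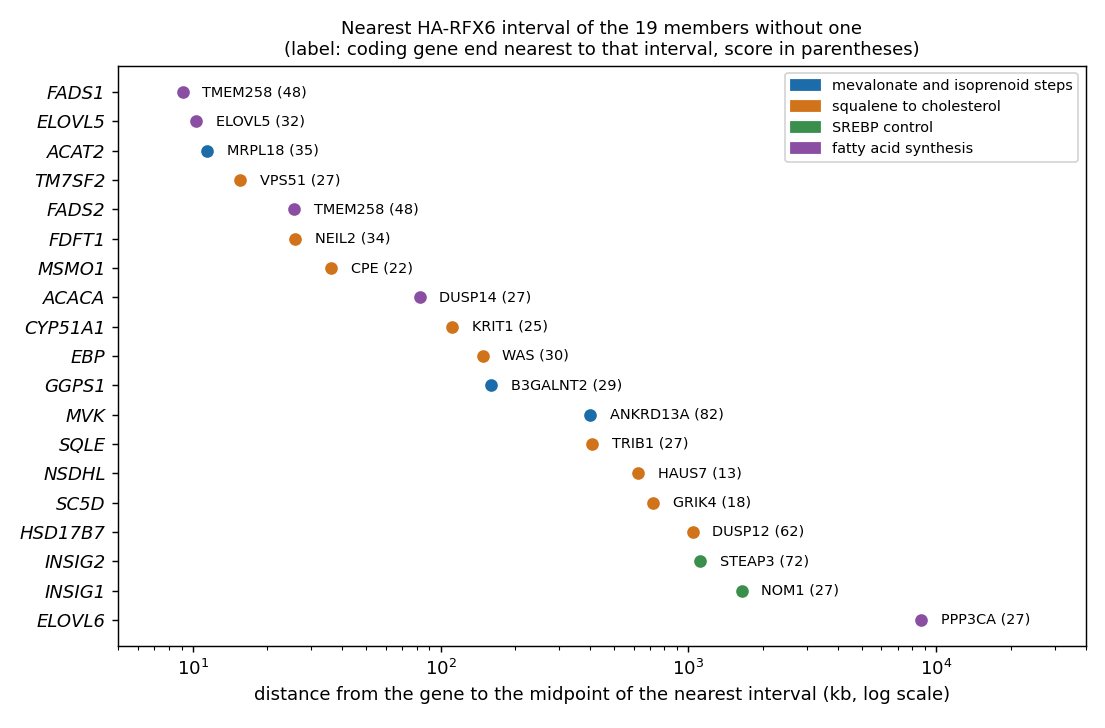
Distance from each of the 19 genes without an interval to the midpoint of the nearest HA-RFX6 interval (x axis, kb, log scale), with colours for the groups of genes. Labels give the coding gene end nearest to that interval and its score; distances run from 9.10 kb at FADS1 to 8698 kb at ELOVL6.

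To place the set within lipid synthesis more widely, 62 other genes of the pathway were examined, including further enzymes, sterol transport, SREBP processing and the SREBP partners NF-Y and SP1. Of these, 23 (37.1%) had an interval by the same rule and 18 (29.0%) within 1 kb of a gene end, compared with 19.5% and 15.5% of all protein-coding genes. Of the 49 with an annotated start, 13 (26.5%) had an interval within 1 kb of a start, compared with 16.3% of all such protein-coding genes.

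Among the 18 genes, NPC1, the lysosomal cholesterol exporter, had an interval with a score of 69, and HACD2, a dehydratase of fatty acid elongation, had 61. RNF145, a membrane ubiquitin ligase of the sterol system, had a score of 59, and MCAT of mitochondrial fatty acid synthesis had 55. Among the partners of SREBPs, NFYA had a score of 62 in an interval shared with OARD1, NFYB had 53 and SP1 had 50, while NFYC had no interval. Intervals at a gene end were also found at LBR, NPC2, ELOVL3, ME1, NR1H2, STARD7 and ACSL3. By the same rule, that of NPC2 also counted for ISCA2, that of ELOVL3 for PITX3 and GBF1, and that of NR1H2 for POLD1. At ELOVL3 and NR1H2 the midpoints were 3788 and 7770 bp downstream of the nearest annotated start. Intervals inside the gene body alone occurred at ACLY, HSD17B12, TECR, LPIN1 and MECR. The MECR interval, with a score of 13, was 49022 bp downstream of the nearest annotated start and also counted for SRSF4. The intervals at ACLY, which encodes the lyase that supplies cytosolic acetyl-CoA, and at LPIN1 were centred 750 bp downstream and 96 bp upstream of an annotated start. ACLY and LPIN1 were singled out after their values were seen.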

How the data were processed

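ChIP-seq was performed by the study in MHCC-97H cells with HA-tagged RFX6. The authors deposited a list of peak positions, each with a whole-number score of unstated meaning, and the submitters' processing notes name MACS2 2.1.0.2. The paper gives a significance cut-off (q value) for its peaks. How the score relates to that cut-off is not stated, so whether every interval used here meets it is unknown. The aligner and the control of peak calling are not given in the sources used here. Samples were grouped by title. The 6214 lines were reduced to distinct intervals, each with its highest score, after 1 line split by digit separators had been repaired, and 3 mitochondrial intervals were left out. The submitters' processing notes name GRCh37, but 60.8% of midpoints lay within 1 kb of a coding gene end in GRCh38.p14, which was therefore used.

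Genes came from a RefSeq table and starts and sequences from a RefSeq promoter table (15843 coding genes, 22199 starts). All genes of the set with an interval were named, and of the other lists some genes counted in the totals are not reported here by name. The members and lists were chosen with earlier results of these data known, and the use of annotated starts was added after the data were seen. Alternatives were scores of at least 20 or 30, any overlap of 1 bp, windows of 2 and 5 kb, merging below 1 kb and the nearest gene end. Assignment was tested on simulated data. Python 3.11.15, numpy 2.4.6, pandas 2.3.3 and matplotlib 3.10.9 were used.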

Additional observations from a re-analysis of the deposited data

How the results depend on the processing

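The number of the 33 genes with an interval at a gene end or in the body was 14, and 10 within 1 kb of a gene end. With scores of at least 30 these were 6 and 4, and with scores of at least 20 they were 9 and 6. Of the 29 genes with annotated starts, 13 had an interval within 1 kb of a start, 5 with scores of at least 30 and 8 with scores of at least 20. HMGCS1, SREBF2, ACACB, SCD and ELOVL1 were lost at the lower limit, and also IDI1, DHCR7 and SREBF1 at the higher. Fewer intervals enter these counts by construction. With any overlap and with merging, the counts were again 14, 10 and 13. The shares of all protein-coding genes were then 19.6% and 19.5% at a gene end or in the body, and 15.9% and 15.3% at a gene end. With windows of 2 and 5 kb, 11 genes (33.3%) had an interval at a gene end, compared with 17.2% and 19.8% of all protein-coding genes. The other counts were the same, while the share of all protein-coding genes at a gene end or in the body was 20.2% and 21.9%. By the nearest coding gene end, 13 genes had an interval (39.4%, compared with 16.8% of all protein-coding genes), as the IDI1 interval went to WDR37. By this setting 10 genes had it at a gene end (30.3%, compared with 13.4%). Of the single genes, FASN had 1 interval in place of 2 after merging, and SREBF1 had 2 in place of 3 by the nearest gene end. No paired analysis was possible because the ChIP was done once, so no replicate could be left out either. Without reads or depth, the error of each interval is unknown.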

Other observations

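Fatty acid breakdown, the opposing pathway, was examined in the same way. Of 32 genes, 7 (21.9%) had an interval at a gene end or in the body and 5 (15.6%) within 1 kb of a gene end, beside 19.5% and 15.5% of all protein-coding genes. Of the 24 with an annotated start, 4 (16.7%) had an interval within 1 kb of a start, beside 16.3% of all such protein-coding genes. HADHA and HADHB, which encode the subunits of the mitochondrial trifunctional protein and lie head to head, shared an interval with a score of 47 and another with a score of 13. ECI1, an enoyl-CoA isomerase, had an interval with a score of 56, and ACAA1, a peroxisomal thiolase, had 51. The median of the best scores at gene ends was 47 over the 5 genes with an interval there, compared with 28 over the 10 genes of synthesis. HADHA and HADHB each entered this median with their shared interval, and over all protein-coding genes the median was 33. ACADVL, an acyl-CoA dehydrogenase, had an interval with a score of 45 inside the gene, centred 28 bp upstream of an annotated start. By the same rule this interval also counted for DLG4. CPT1A, which controls the entry of fatty acids into mitochondria, had an interval with a score of 27, 2330 bp downstream of its start. ACADVL and CPT1A were singled out after their values were seen, and the remaining 25 genes had no interval. The difference between synthesis and breakdown was not tested, since genes of a list are not replicates.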
